A study of Mus musculus with 4 samples.

Results

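The cytochrome P450 genes of families 1 to 4 were followed in the subcutaneous adipose tissue (SAT) of mice. A gene was counted as a member where its symbol in the array's probe annotation was Cyp, then 1, 2, 3 or 4, then a letter and digits, and where its probe set named no other gene. This rule found 65 members among 19938 genes, each read by 1 probe set. Of these, 3 belonged to family 1, 43 to family 2, 6 to family 3 and 13 to family 4.

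RNA was measured on 4 arrays, 1 for each combination of genotype and diet. All mice were C57Bl6 males, were 16 weeks old and carried the floxed *Napepld* allele on both chromosomes (NAPE PLD lox/lox). WT-CT and WT-HFD were littermates without Cre, and cKO-CT and cKO-HFD also carried AP2 Cre, in which the *Fabp4* (aP2) promoter drives the recombinase, so cells of the tissue that do not use this promoter keep the allele. CT was the control diet AIN93M and HFD the high-fat diet D12492, each given for 8 weeks. The RNA on each array was a pool of mice, 5 according to the methods and at least 4 according to the labels. A value therefore carries no replicate error, no test was possible, and each difference below is between 2 pools. A change was called at 1.5-fold, which is 0.58 on the log2 scale. The same size set the study's list of genes changed in cKO-CT against WT-CT.

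Cytochrome P450 enzymes of these families are haem proteins of the endoplasmic reticulum that insert an oxygen atom into fats, steroids, drugs and pollutants, with electrons passed on from NADPH by P450 reductase. The liver is the organ best known for them, and many of their genes are switched on there by receptors that bind foreign compounds or fatty acids. In other tissues, several members act on fatty acids and their signalling products: subfamily 2c and 2j enzymes make epoxides of arachidonic acid, and family 4 enzymes hydroxylate fatty acids at or near the end of the chain. *Napepld* encodes the enzyme that makes *N*-acylethanolamines, lipid messengers related to the endocannabinoids.

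*Napepld* was at 8.31 in WT and 7.78 in cKO on CT, and at 8.01 in WT and 7.94 in cKO on HFD on the log2 scale, a ratio of -0.53 on CT and -0.06 on HFD. This does not check the labels, since whole tissue was measured and the place of the probes relative to the floxed part is not known here. The study itself reported lower *Napepld* mRNA by qPCR in fat of cKO mice on both diets. It detected no protein in their white fat, and placed the loss of mRNA in adipocytes and not in the stromal vascular fraction. All 10 measured adipocyte markers were above background on every array. Markers of other tissues also moved between pools: the median ratio of 12 skeletal muscle genes was -3.81 for cKO-HFD over WT-HFD, and that of 10 pancreatic acinar genes was -1.82 for cKO-CT over WT-CT.

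Most P450 genes were not above background in SAT. Background was set on each array as the 95th percentile of 1027 olfactory receptor (Olfr) genes, most of which are used in the nose, and lay at 5.39 in WT and 5.28 in cKO on CT, and 5.42 in WT and 5.50 in cKO on HFD on the log2 scale. In all, 15 of the 65 members (23.1%) exceeded it on at least 1 array and 11 (16.9%) on all 4. Of all genes, 62.6% exceeded it on at least 1 array and 54.6% on all 4. The count was 13 on each array but cKO-HFD, where it was 12, so neither diet nor genotype moved it by more than 1 member.

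The 11 members above background on every array were *Cyp1b1*, *Cyp2d22*, *Cyp2d40*, *Cyp2e1*, *Cyp2f2*, *Cyp2j6*, *Cyp2j9*, *Cyp2u1*, *Cyp4b1*, *Cyp4f13* and *Cyp4f16*. *Cyp4f18* exceeded it on 3 arrays, all but cKO-HFD. *Cyp2c37* exceeded it on the 2 WT arrays, *Cyp4a10* on cKO-CT alone and *Cyp2c66* on cKO-HFD alone. *Cyp2c37* stayed within 0.14 of the limit on every array, while *Cyp2c66* was 0.62 below it in cKO-CT and *Cyp4a10* 0.50 below it in WT-HFD. The member nearest to the limit without passing it was *Cyp4f39*, at 5.37 in WT-HFD, 0.05 below.

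By family, 1 of 3 members of family 1, 9 of 43 of family 2, 0 of 6 of family 3 and 5 of 13 of family 4 exceeded background on at least 1 array. The 6 family 3 members are all of subfamily 3a, the steroid and drug hydroxylases of liver and gut, and lay between 2.67 and 4.74 on the log2 scale. None of the 5 members of subfamily 2b, known for induction by phenobarbital in the liver, passed, and their highest value was 5.28. Of 13 members of subfamily 2c, only *Cyp2c37* and *Cyp2c66* passed, and of 9 members of subfamily 2d, only *Cyp2d22* and *Cyp2d40*. The classical targets of the aryl hydrocarbon receptor differed: *Cyp1a1* lay between 3.80 and 3.98 and *Cyp1a2* between 3.56 and 3.89, under background on every array, while *Cyp1b1*, which oxidizes oestrogens and polycyclic hydrocarbons outside the liver, lay between 6.26 and 6.50, above it on every array.

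**Figure D1:**
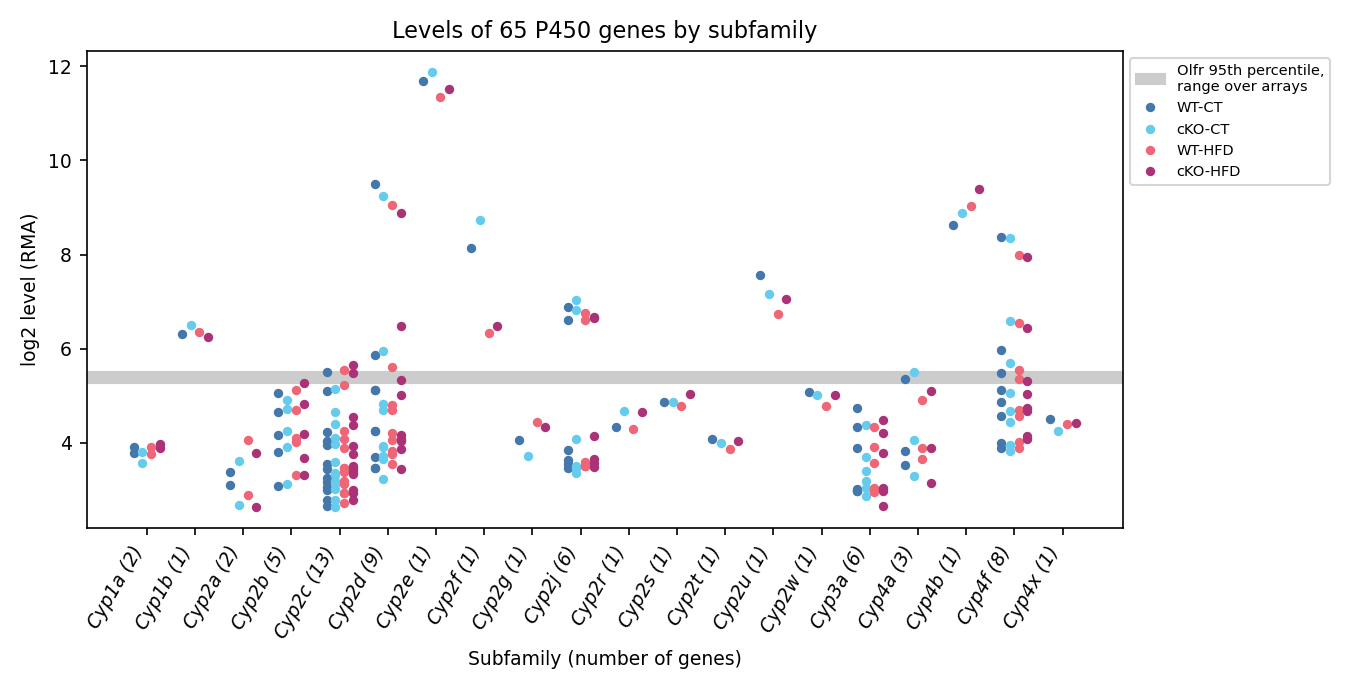
Log2 level (RMA, vertical axis) of the 65 P450 genes by subfamily, with the number of genes in brackets; each point is 1 gene on 1 array, coloured by group, and the grey band spans the Olfr 95th percentile over the 4 arrays, 5.28 to 5.50. Most points lie under the band, and those of *Cyp2e1*, between 11.35 and 11.87, stand at the top, although levels of different probe sets do not rank the genes.

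Levels above background were thinly spread over the gene clusters of the genome. In the RefSeq order of genes, 57 members fell into 8 clusters, in which each member lay within 1 Mb of the next, and 8 members stood alone. *Cyp2f2* was the only gene of 11 above background in the cluster of subfamilies 2a, 2b, 2f, 2g, 2s and 2t. The 2c cluster had 2 of 12 above, the 2d cluster 2 of 9, a 4f cluster 2 of 7, the 2j cluster 2 of 6 and the cluster of 4x, 4a and 4b genes 2 of 5. No member passed in a cluster of 5 subfamily 3a genes or in the pair *Cyp1a1* and *Cyp1a2*. Members of a cluster are often near copies of each other, so a probe set may also catch RNA of a neighbour. Probe positions were not checked for any gene, so values of all clustered members are uncertain in this respect. Among them are *Cyp2d40*, *Cyp2c66*, *Cyp2c37*, *Cyp4a10*, *Cyp4f16*, *Cyp4f13*, *Cyp2j6*, *Cyp2j9*, *Cyp2d22*, *Cyp4b1* and *Cyp2f2*.

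The stretches of DNA just before the start of genes that the results below turn on are shown here to set genes above background beside *Cyp1a1*, which was not. RefSeq promoters (GRCm38.p6) were at hand for 53 members, 12 of them among the 15 above background, and the 250 bases before the start were searched on both strands for 4 motifs. These were GCGTG, the core bound by the aryl hydrocarbon receptor with its partner; AGGTCA, an element of many nuclear receptors; TATAAA, the TATA box; and CCAAT, the CCAAT box; none of the 4 contains another. Each sequence runs 5′ to 3′ in the direction of the gene, and capitals mark a motif, read on either strand:
*Cyp2f2* (chr7:27119705-27119954, plus strand): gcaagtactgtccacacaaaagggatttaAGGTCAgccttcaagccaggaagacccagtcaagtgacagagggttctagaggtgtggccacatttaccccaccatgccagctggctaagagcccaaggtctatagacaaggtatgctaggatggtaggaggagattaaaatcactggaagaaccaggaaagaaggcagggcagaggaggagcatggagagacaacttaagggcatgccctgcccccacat
*Cyp2e1* (chr7:140763569-140763818, plus strand): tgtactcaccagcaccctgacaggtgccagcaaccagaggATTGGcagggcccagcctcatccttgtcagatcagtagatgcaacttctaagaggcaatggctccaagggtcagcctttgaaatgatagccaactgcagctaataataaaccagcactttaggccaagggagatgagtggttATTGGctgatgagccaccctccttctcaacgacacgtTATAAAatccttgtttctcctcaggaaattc
*Cyp4f16* (chr17:32536307-32536556, plus strand): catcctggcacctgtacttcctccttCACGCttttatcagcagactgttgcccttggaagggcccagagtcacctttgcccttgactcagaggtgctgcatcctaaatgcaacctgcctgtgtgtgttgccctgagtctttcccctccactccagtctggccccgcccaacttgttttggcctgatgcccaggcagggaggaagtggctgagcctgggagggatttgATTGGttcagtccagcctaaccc
*Cyp1a1* (chr9:57697363-57697612, plus strand): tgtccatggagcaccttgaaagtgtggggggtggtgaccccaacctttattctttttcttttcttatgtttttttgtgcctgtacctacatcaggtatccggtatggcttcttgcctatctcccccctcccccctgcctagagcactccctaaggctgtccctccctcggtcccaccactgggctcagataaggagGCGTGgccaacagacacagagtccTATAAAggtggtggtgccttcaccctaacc
*Cyp1b1* (chr17:79715062-79715311, minus strand): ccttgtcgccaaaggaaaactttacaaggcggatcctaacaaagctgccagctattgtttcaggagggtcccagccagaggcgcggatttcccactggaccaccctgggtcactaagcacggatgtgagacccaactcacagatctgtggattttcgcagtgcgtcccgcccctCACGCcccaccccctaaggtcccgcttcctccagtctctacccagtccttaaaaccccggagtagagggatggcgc

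*Cyp2f2* held AGGTCA, from 221 to 216 bases before the start, and none of the other motifs. *Cyp2e1* held a TATA box from 31 to 26 bases before the start and CCAAT at 2 places on the opposite strand. *Cyp4f16* held CCAAT and GCGTG, both on the opposite strand. GCGTG stood in *Cyp1a1*, below background, from 54 to 50 bases before the start, and in *Cyp1b1*, above background, from 76 to 72 bases on the opposite strand, so these letters were common to both genes while their levels lay on opposite sides of background. *Cyp4b1* held none of the 4.

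Over the 60 promoters of the 53 members, GCGTG was found in 12, beside 28.2% of all 32851 promoters of the table. AGGTCA was found in 15 of the 60, beside 14.0% of all promoters, and in that of 1 of the 12 genes above background. TATAAA was found in 21 of the 60, beside 12.4%, and CCAAT in 26, beside 33.8%. Several promoters of 1 gene were counted separately, as for *Cyp4f14* and *Cyp3a25* with CCAAT. Members of a cluster are often near copies, so these promoters are not independent. Of the 12 genes above background, 3 held GCGTG, 3 held TATAAA and 8 held CCAAT. A match is a run of letters and was not tested for binding.

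Diet was compared first, in WT and in cKO. *Cyp2f2*, whose enzyme activates naphthalene and is known from the club cells of the lung, was the member with the largest diet ratio in both genotypes. Its level was 8.14 in WT and 8.74 in cKO on CT, against 6.34 in WT and 6.48 in cKO on HFD. Both CT pools were above both HFD pools, and the gap between the diets was larger than that between genotypes on either diet. *Cyp2f2* thus fell on HFD, with log2 ratios of -1.80 in WT (3.48-fold) and -2.26 in cKO (4.79-fold). It ranked 34th lowest of 12150 genes in WT and 19th lowest of 12169 in cKO. Fewer cells of a type and less RNA per cell cannot be told apart in bulk tissue.

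Values of other tissues' markers that stood beside *Cyp2f2* were as follows. Of 5 club cell markers, 2 were above background, *Scgb1a1*, the defining gene of that cell, was under it on every array, at 3.39 to 3.89, and the summed level of the list on the log2 scale was 7.25 and 7.21 on CT (WT, then cKO) and 7.29 and 7.30 on HFD. Of 17 liver markers, 6 were above background, and the summed level of all 17 was 12.78, 12.70, 11.96 and 12.02 in the same order. *Alb*, the gene of serum albumin and a defining liver marker, was at 10.18, 9.77, 8.54 and 7.73 in the same order. The other liver markers did not move together: on HFD, *Apoa1* had -0.10 in WT and 0.90 in cKO, *Apoc3* -0.29 and 0.39, and *Apoa2* 0.39 and -0.53. The summed level was carried mainly by *Pck1*, which adipocytes also express, at 12.37, 12.34, 11.56 and 11.67. The liver genes *Fgb*, *Ahsg* and *Ttr* were below background on every array. For HFD over CT, skeletal muscle markers had a median ratio of 1.62 in WT, with 9 of 12 higher. In cKO it was -2.16, with 9 of 12 lower. Pancreatic acinar markers had -1.63 in WT over 10 genes and 0.13 in cKO over 5. The part of any of these cells in the *Cyp2f2* values was not tested.

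In WT, 13 members were above background on at least 1 of the 2 arrays, and 2 of them fell by 1.5-fold or more, *Cyp2f2* and *Cyp2u1*, and 0 rose. Of all genes so filtered, 4.52% were higher and 3.6% lower at this size. The median ratio of the 13 members was -0.26 on the log2 scale, beside 0.01 over all genes, whose middle 95% ran from -0.70 to 0.75. Without the background filter, 2 of 65 members were higher (3.16% of all genes) and 2 lower (2.67%), and the 2 higher ones, *Cyp2a12* and *Cyp2d11*, were below background.

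*Cyp2u1*, a hydroxylase of long-chain fatty acids, was at 7.57 in WT and 7.17 in cKO on CT, and at 6.73 in WT and 7.06 in cKO on HFD. WT-CT was the highest and WT-HFD the lowest pool, with both cKO pools between. It fell by 0.84 in WT on HFD (1.79-fold) and its ratio in cKO was -0.11. Whether the diet ratio differed between the genotypes could not be tested. Between the same WT pools the pancreatic acinar markers had a median ratio of -1.63, with 9 of 10 lower, and the skeletal muscle markers one of 1.62, with 9 of 12 higher, and their part in this value was not tested.

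In cKO, 14 members were above background on at least 1 of the 2 arrays, of which 1 was lower, *Cyp2f2*, and 1 higher, *Cyp2c66*. Among all genes so filtered, 3.21% were lower and 1.33% higher. The median ratio of the 14 was -0.30, beside -0.05 over all genes, whose middle 95% ran from -0.64 to 0.50. Of the 14, 11 had a ratio below 0 and 3 above it, and 42.2% of all genes had a ratio above 0. The sign turned without the background filter, with 42 of the 65 members above 0 and a median of 0.12, and the median was -0.11 under a limit from vomeronasal receptor genes. Over all 65 members, 3 were higher (1.82% of all genes) and 1 lower (2.17%), and 2 of the higher ones, *Cyp2g1* and *Cyp2c67*, were below background.

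*Cyp2c66*, a gene of the arachidonic acid epoxygenase subfamily, was at 5.10 in WT and 4.66 in cKO on CT, and at 5.23 in WT and 5.66 in cKO on HFD. Its ratio of 1.0 for cKO-HFD over cKO-CT (2.0-fold) was thus between a value 0.62 under background and a value 0.16 over it. The size of a ratio measured from below background is not well defined.

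*Cyp2e1*, *Cyp2d22*, *Cyp4f13* and *Cyp2j6* had diet ratios below 0 in both genotypes, all under the size of a call. *Cyp2e1*, which oxidizes ethanol, acetone and small solvents, was at 11.69 in WT and 11.87 in cKO on CT, and at 11.35 in WT and 11.52 in cKO on HFD. Its diet ratio was -0.35 in both genotypes, under the size used for a call. *Cyp2d22*, of a subfamily known for oxidizing drugs with a basic nitrogen, was at 9.51, 9.24, 9.05 and 8.88 in the same order, with diet ratios of -0.45 in WT and -0.36 in cKO. *Cyp4f13*, of the subfamily that oxidizes leukotrienes and long fatty acids, was at 8.37, 8.35, 7.98 and 7.94, with diet ratios of -0.39 and -0.41. In these 3 genes, and in *Cyp2f2*, *Cyp2j6* and *Cyp2u1*, both HFD pools lay under both CT pools. *Cyp4a10* had the same order of pools but was above background on cKO-CT alone. It was counted only through that array, so its order is unresolved. *Cyp2j6*, an epoxygenase of arachidonic acid, was at 6.89, 7.02, 6.61 and 6.67, with ratios of -0.28 and -0.36.

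*Cyp4b1*, which oxidizes fatty acids and activates plant toxins in the lung, had diet ratios of the other sign. It was at 8.62 in WT and 8.89 in cKO on CT, and at 9.03 in WT and 9.38 in cKO on HFD. Both HFD pools were above both CT pools, with ratios of 0.40 in WT (1.32-fold) and 0.50 in cKO (1.41-fold), under the size used for a call. Among the 11 members above background on all arrays it was the only one above 0 in both genotypes.

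The WT and the cKO diet ratios rest on different arrays. Of the 11 members above background on all 4 arrays, 6 had ratios below 0 in both genotypes (*Cyp2d22*, *Cyp2e1*, *Cyp2f2*, *Cyp2j6*, *Cyp2u1* and *Cyp4f13*), 1 above 0 in both and 4 opposite ratios. The sign was thus the same for 63.6% of them, beside 55.0% of 10895 genes. Across the 11 genes Pearson's r was 0.78, and 0.32 over the 10 without *Cyp2f2*, so the value rested on that gene, and it was 0.20 over the 10895 genes. Genes are not independent replicates.

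**Figure D2:**
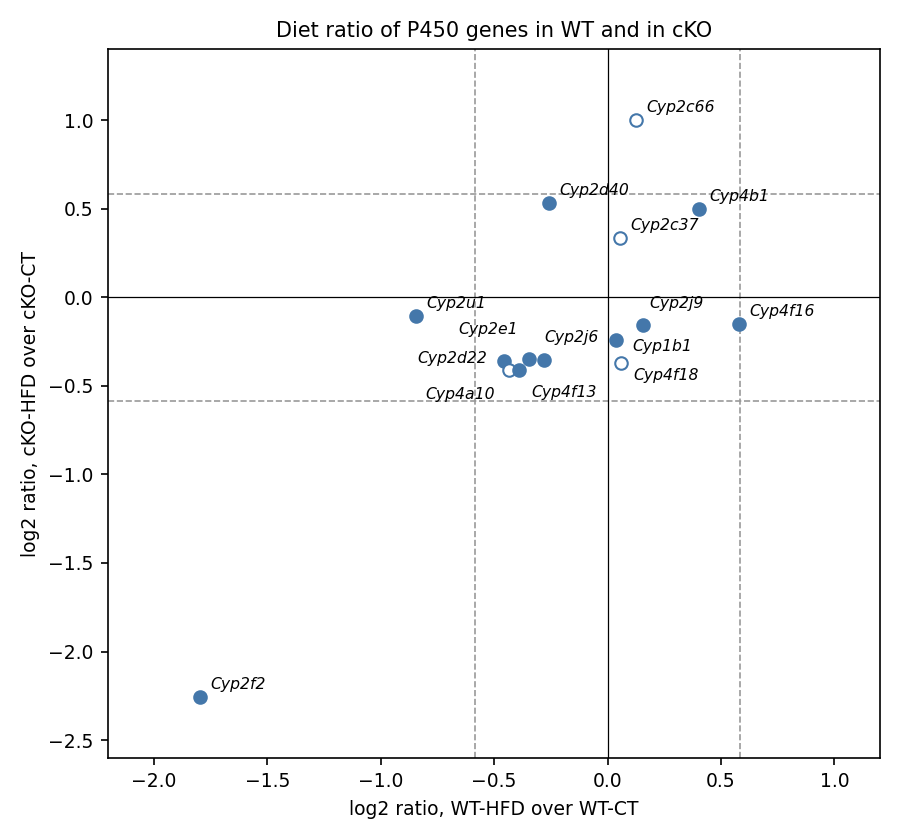
Log2 diet ratio in WT (WT-HFD over WT-CT, horizontal axis) against that in cKO (cKO-HFD over cKO-CT, vertical axis) for the 15 P450 genes above background on at least 1 array; open circles are genes not above it on all 4 arrays, and dashed lines mark 1.5-fold. *Cyp2f2* lies alone at the lower left, at -1.80 and -2.26, and *Cyp4b1* is the only filled point with both ratios above 0.

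The remaining members above background showed no call by diet. *Cyp4f16* was 0.58 higher in WT-HFD than in WT-CT (1.49-fold, just under the size of a call), and its ratio in cKO was -0.15. *Cyp4a10*, a fatty acid hydroxylase and a classical target of PPARα in the liver, lay near background, at 5.35 in WT and 5.51 in cKO on CT, and at 4.92 in WT and 5.10 in cKO on HFD, and its relative *Cyp4a14* was at 3.82 to 4.07, below it. *Cyp2d40* had -0.26 in WT and 0.53 in cKO. The diet ratios of *Cyp1b1*, *Cyp2j9*, *Cyp4f18* and *Cyp2c37* lay between -0.37 and 0.33. *Cyp1b1* was at 6.31 and 6.50 on CT (WT, then cKO) and at 6.35 and 6.26 on HFD. *Cyp2j9*, of the arachidonic acid epoxygenase subfamily 2j, was at 6.61 and 6.81 on CT and at 6.76 and 6.66 on HFD. *Cyp4f18*, which inactivates leukotrienes in white blood cells, was at 5.49 and 5.70 on CT and at 5.55 and 5.32 on HFD, and *Cyp2c37* at 5.50 and 5.15 on CT and at 5.56 and 5.48 on HFD. In these last 4 genes the pools of the diets overlapped, and in *Cyp2c37* both WT pools lay above both cKO pools.

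Genotype was compared on each diet to ask how the loss of *Napepld* in *Fabp4*-expressing cells goes with the P450 genes. On CT, 14 members were above background on at least 1 of the 2 arrays, of which 2 rose in cKO-CT, *Cyp4f16* and *Cyp2f2*, and 0 fell. Of all genes so filtered, 2.42% were higher and 1.29% lower. The median ratio of the 14 was 0.16, beside 0.05 over all genes, whose middle 95% ran from -0.49 to 0.58. This median was 0.0396 with the 90th percentile of Olfr genes as limit, -0.0095 with the limit from vomeronasal receptor genes and -0.0185 without a filter, so its sign rested on the limit. Over all 65 members, 2 were higher (1.64% of all genes) and 1 lower (1.52%), the last being *Cyp3a44*, below background.

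*Cyp4f16*, a further gene of the subfamily of *Cyp4f13*, was at 5.97 in WT and 6.59 in cKO on CT, and at 6.55 in WT and 6.44 in cKO on HFD. WT-CT was the low pool, and the other 3 lay within 0.15 of each other. Its ratio of 0.62 for cKO-CT over WT-CT (1.54-fold) ranked 211th of 12311 genes, and its ratio on HFD was -0.11. Macrophage markers, all 12 above background on every array, had median ratios of 0.58 for cKO-CT over WT-CT, 0.85 for WT-HFD over WT-CT, -0.35 for cKO-HFD over WT-HFD and -0.15 for cKO-HFD over cKO-CT, with summed log2 levels of 11.98, 12.54, 12.82 and 12.36. Those of *Cyp4f16* in the same order, from comparisons that share arrays, were 0.62, 0.58, -0.11 and -0.15. The 8 stromal progenitor markers had medians of 0.27, 0.52, -0.37 and -0.21, and the 10 endothelium and smooth muscle markers had 0.37, 0.27, 0.35 and 0.12. The part of any of these cells in the *Cyp4f16* values was not tested.

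*Cyp2f2* was 0.60 higher in cKO-CT than in WT-CT (1.52-fold) and ranked 265th of 12311 genes, with a ratio of 0.14 on HFD. The call on CT was lost after cyclic loess scaling of the arrays, which gave 0.52. Between the same 2 pools the 6 liver markers above background had a median ratio of 0.04 and ran from -0.42 for *Alb* to 0.28 for *Apoa2*.

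On HFD, 14 members were above background on at least 1 of the 2 arrays, of which 1 rose in cKO-HFD, *Cyp2d40*, and 0 fell. Among all genes so filtered, 0.966% were higher and 3.13% lower. The median of the 14 was 0.0076, beside 0.014 over all genes, whose middle 95% ran from -0.66 to 0.46. Over all 65 members, 1 was higher (1.04% of all genes) and 0 lower (2.11%).

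*Cyp2d40* was at 5.86 in WT and 5.96 in cKO on CT, and at 5.61 in WT and 6.49 in cKO on HFD. The cKO-HFD pool stood above the other 3. Its ratio of 0.88 for cKO-HFD over WT-HFD (1.85-fold) ranked 16th highest of 11907 genes, against 0.10 on CT, and its diet ratio in cKO was 0.53. The skeletal muscle markers fell between the same HFD pools, 12 of 12, from a summed log2 level of 15.46 to 11.89. Medians of the other marker lists ran from -0.37 (stromal progenitor) to 0.35 (endothelium and smooth muscle). That of keratinocyte and skin, 0.02, was over only 4 genes above background, which split widely. *Dsp* had 0.59 and *Krt10* 0.44, while *Trp63* had -0.40 and *Sbsn* -0.54, so this median does not show that skin markers were level. The part of any of these tissues in the *Cyp2d40* value was not tested.

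The other members showed genotype ratios under the size of a call on both diets. *Cyp2e1* had 0.17 on CT and 0.17 on HFD, *Cyp4b1* 0.26 and 0.36, and *Cyp2d22* -0.26 and -0.17. *Cyp4f13* differed by -0.02 and -0.04, and *Cyp2j6* by 0.14 and 0.06. *Cyp2u1* had opposite ratios, -0.40 on CT and 0.33 on HFD. Of the 11 members above background on all 4 arrays, 5 had both genotype ratios above 0, 2 both below 0 and 4 opposite, so 63.6% had the same sign, beside 49.6% of 10895 genes. Across the 11 genes, r between these ratios, which rest on different arrays, was -0.11.

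**Figure D3:**
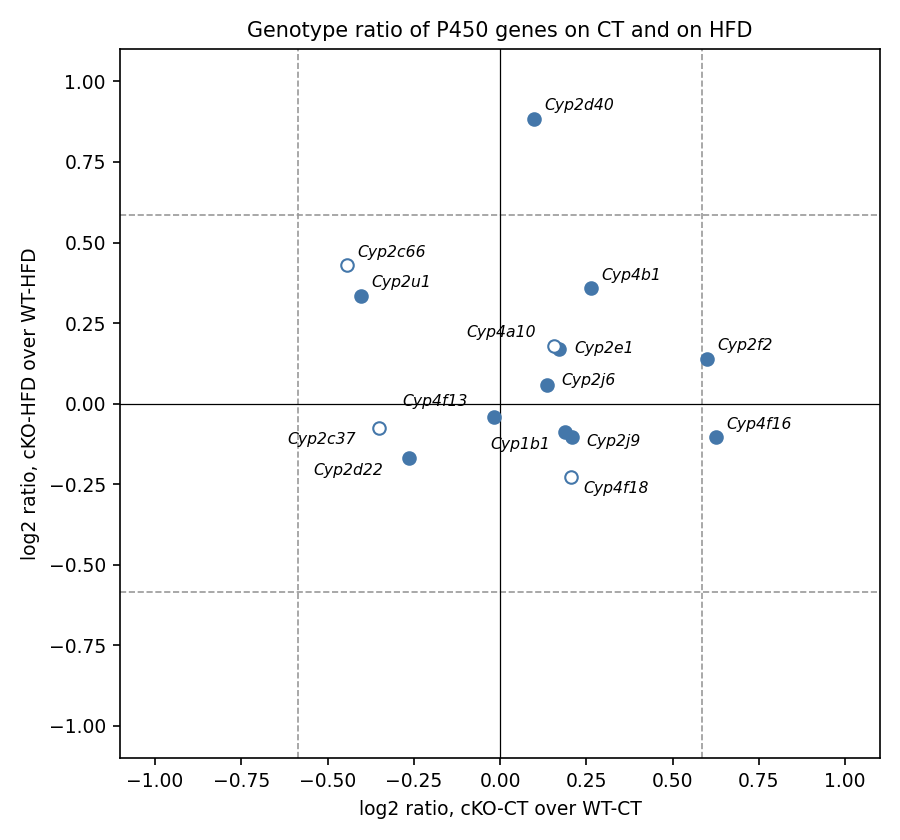
Log2 genotype ratio on CT (cKO-CT over WT-CT, horizontal axis) against that on HFD (cKO-HFD over WT-HFD, vertical axis) for the same 15 P450 genes; open circles are genes not above background on all 4 arrays, and dashed lines mark 1.5-fold. *Cyp4f16* and *Cyp2f2* pass the line on CT, *Cyp2d40* passes it on HFD at 0.88, and no gene passes both.

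**Figure D4:**
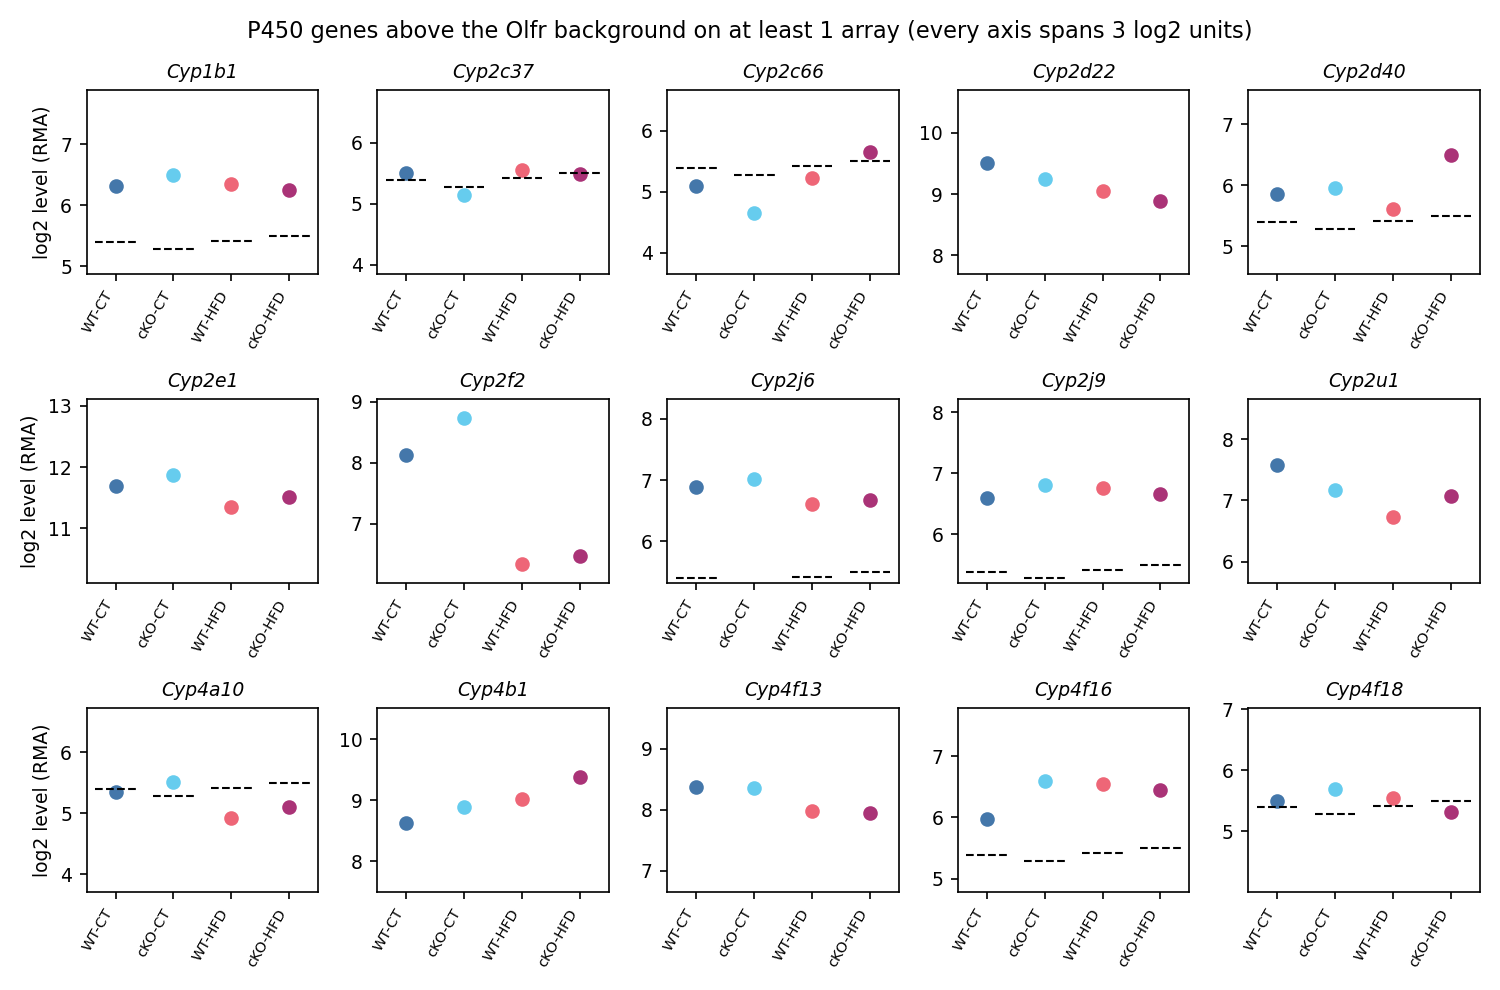
Log2 level (RMA, vertical axis, 3 log2 units in every panel) of each of the 15 P450 genes above background on at least 1 array, 1 point per pooled array; dashed lines, where in range, give the Olfr 95th percentile of that array. The 2 HFD points of *Cyp2f2*, at 6.34 and 6.48, stand well under its CT points, while most other genes move little.

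The 50 members below background on every array lay between 2.65 and 5.37 and varied less than the members above it, with a median range over the 4 arrays of 0.31, beside 0.62 for the 11 above background throughout. Of these 50, the widest were *Cyp3a44*, with a range of 1.03, *Cyp2g1* with 0.71 and *Cyp2a12* with 0.67. *Cyp3a44* was at 4.74 in WT-CT and 3.70 in cKO-CT, both under background, so this ratio of -1.03 is unresolved. *Cyp2r1*, which hydroxylates vitamin D, was at 4.29 to 4.68.

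The enzymes that serve P450s were mostly above background. Of 19 listed genes for electron transfer and the making and breaking of haem, 17 were measured, 16 were above background, and P450 reductase was not among those measured. Of these 16, 1 rose and 1 fell for cKO-HFD over WT-HFD: *Cyb5b*, a cytochrome b5, by 0.79, and *Cpox*, an enzyme of haem synthesis, with -0.59. *Cpox* was at 6.0 in WT-HFD and 5.41 in cKO-HFD, under the background of 5.50 there, so the size of its ratio is not well defined. In WT on HFD, 1 rose and 1 fell, *Hmox1*, which breaks down haem, with 0.66 and *Pgrmc1*, a haem-binding partner of P450 enzymes, with -0.64. Of all genes above background, 0.966% were higher and 3.13% lower in the first of these comparisons, and 4.52% and 3.6% in the second. None of the 16 passed in the other comparisons, and the medians of the 16 lay between 0.02 and 0.12.

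Receptors known to control P450 genes included 10 of 15 above background. *Ppara*, the fatty acid receptor that drives subfamily 4a genes in the liver, was the only one of the list to pass 1.5-fold, where 1.29% of all genes were lower in cKO-CT, 3.6% in WT on HFD and 3.21% in cKO on HFD. It was at 8.50 in WT and 7.59 in cKO on CT, and at 6.55 in WT and 6.31 in cKO on HFD, highest in WT-CT and low on both HFD arrays. It fell in cKO-CT, with -0.91, and on HFD, with -1.95 in WT and -1.28 in cKO, and its genotype ratio on HFD was -0.24. *Ahr*, the aryl hydrocarbon receptor, lay between 6.85 and 7.0. The xenobiotic receptors *Nr1i2* and *Nr1i3* were below background on every array.

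Epoxide hydrolases act after the epoxygenases, and phospholipases A2 release the arachidonic acid that these use. Of 7 measured genes of these 2 kinds, 6 were above background. Only *Ephx1*, the microsomal epoxide hydrolase, passed the size of a call, at 7.56 in WT and 8.22 in cKO on CT, and at 8.07 in WT and 7.93 in cKO on HFD, and it rose by 0.66 in cKO-CT, where 2.42% of all genes were higher. *Ephx2*, the soluble form that hydrolyses fatty acid epoxides, was at 9.87, 9.76, 9.41 and 9.72. Of 19 measured genes of other oxidizing and conjugating enzymes, 14 were above background and only *Gsta4*, which conjugates products of lipid peroxidation to glutathione, passed. *Gsta4* was at 8.0 in WT and 7.76 in cKO on CT and fell on HFD, to 6.78 and 6.73, with ratios of -1.22 and -1.03, beside 3.6% and 3.21% of all genes lower in WT and in cKO. *Fmo1*, a flavin mono-oxygenase, had diet ratios of -0.49 and -0.54. The medians of these 14 genes were -0.12 in WT and -0.13 in cKO for diet, and -0.02 on both diets for genotype.

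**Figure D5:**
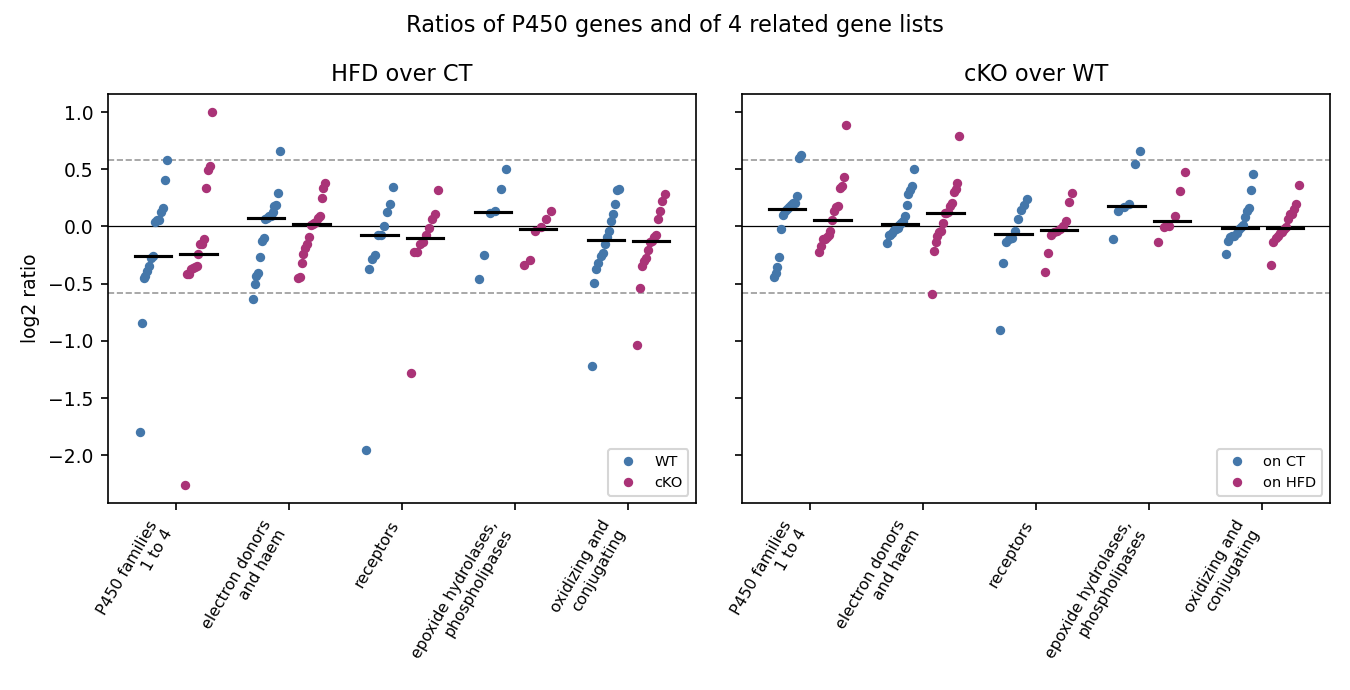
Log2 ratios (vertical axis) of the P450 genes and of 4 related gene lists, HFD over CT at left and cKO over WT at right; each point is a gene above background on at least 1 array, black bars are medians and dashed lines mark 1.5-fold. In the diet panel 1 gene each of the P450, receptor and oxidizing lists lies below -1 in both genotypes, namely *Cyp2f2*, *Ppara* and *Gsta4*.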

How the data were processed

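RNA of SAT was hybridized to Affymetrix MoGene 1.0 ST arrays, 1 array of pooled RNA per group. The deposited values are log2 levels, which the authors made with RMA (RMA-Sketch in Affymetrix Power Tools per the methods, Affymetrix Expression Console per the submitters' processing notes; versions not given in the sources used here). Detection p-values by which the authors filtered probe sets did not enter. RMA gives all arrays the same distribution, so a shift of all genes together is not seen, and low values are compressed, which understates ratios near background.

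Of 35556 probe sets, 21789 named 1 gene, 1621 several and 12146 none. Probe sets of 1 gene were averaged to 19938 genes with Python 3.11.15, pandas 2.3.3 and numpy 2.4.6 (figures, matplotlib 3.10.9). Ratios are differences of log2 levels without further scaling. Counts and medians were taken over genes above the Olfr 95th percentile on at least 1 of the 2 arrays compared. Precision is limited by the 4 arrays, and no p-value was computed. Alternatives were other background limits, no filter, a mean level of at least 7, cyclic loess in limma 3.58.1 (R 4.3.3) and a 2-fold size. Further ones were the highest probe set of a gene, centring on the median of all genes, and symbols with a suffix as members. The counting was tested on simulated data with planted changes of at least 2-fold. This tested neither the background limit nor calls close to 1.5-fold.

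Members above background on at least 1 array were named, with the value on every array for those at 1.5-fold in a comparison and for the 6 with the highest mean level. The 3 widest members below background were named too, as were up to 4 genes per related list by absolute ratio and the genes behind a count of at most 5. Other named genes, among them *Cyp4f39*, *Cyp1a1*, *Cyp1a2*, *Cyp2r1*, *Cyp4a14*, *Ahr*, *Nr1i2*, *Nr1i3* and the named markers, fall outside this rule and were chosen after their values were seen. The members and lists were chosen with earlier results of these data known, and *Cyp4f16* and *Cyp2f2* were also in the study's own list of changed genes from these arrays.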

Additional observations from a re-analysis of the deposited data

Results flagged for a closer look

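*Cyp4f16* is set out here because it was the only one of the 11 members above background on all arrays with a genotype ratio past 1.5-fold on one diet and of the opposite sign on the other, 0.62 on CT (cKO-CT over WT-CT) and -0.11 on HFD (cKO-HFD over WT-HFD), on the log2 scale. Opposite signs as such were found in 4 of the 11, and *Cyp2u1*, with -0.40 on CT and 0.33 on HFD, differed between the diets by 0.74, about as much as *Cyp4f16*, with -0.73. The largest such difference among the 11 was that of *Cyp2d40*, 0.79, from ratios of 0.10 on CT and 0.88 on HFD, both above 0. *Cyp2c66*, above background on 1 array only, had -0.44 and 0.43. With 1 array per group none of these differences was tested.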

How the results depend on the processing

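Of 123 counts and medians recomputed under the alternatives, 99 stayed close to the reported value. Part of this was fixed in advance. Each member has 1 probe set, so taking the highest probe set of a gene could not change a member's level. Centring moves levels and limit together, so it could not change which members were above background. Counts were taken as close when equal, or when neither was 0 and the larger was at most 1.5 times the smaller. The 20 members above the 90th percentile and 11 above the 99th thus counted as close to 15. A median was taken to have moved when it shifted by over 1 standard error of a median, from the robust SD of all genes' ratios. The background limit and the filter decide which members are counted, and the scaling and the size of a call also moved some counts. Why a value moved was not tested. With the 90th percentile of Olfr genes, the member median was -0.15 for cKO-HFD over cKO-CT and, for cKO-CT over WT-CT, 0.0396. With the 99th, 0 members were higher for cKO-HFD over cKO-CT. With the 95th percentile of 163 vomeronasal receptor genes, 24 members were above background, 1 was lower in cKO-CT, and the medians were -0.0095 for cKO-CT over WT-CT, 0.16 for cKO-HFD over WT-HFD and -0.11 for cKO-HFD over cKO-CT. With no filter, 1 was lower in cKO-CT (median -0.0185), 2 were higher in WT-HFD over WT-CT (median -0.0324) and 3 in cKO-HFD over cKO-CT (median 0.12). With a mean level of at least 7, 1 was higher in cKO-CT (median 0.0764), 0 in cKO-HFD over WT-HFD (median 0.15) and 0 in cKO-HFD over cKO-CT, and the WT diet median was -0.42. After cyclic loess, 1 was higher in cKO-CT. At 2-fold, 0 were higher in cKO-CT, 0 in cKO-HFD over WT-HFD, and 1 was lower in WT-HFD over WT-CT. Of 36 values for single members, 35 kept their direction and side of the 1.5-fold size, the exception being *Cyp2f2* for cKO-CT over WT-CT, at 0.52 after cyclic loess. Leaving out an array was not possible with 1 per group. No paired analysis was possible because each group has 1 array.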

Other observations

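P450 genes of families above 4, which make or break steroids, bile acids, retinoic acid and vitamin D, numbered 17. Of these, 7 (41.2%) were above background on at least 1 array and 5 on all 4. For families 1 to 4 it was 15 and 11 of 65, and 62.6% and 54.6% of all genes. *Cyp27a1*, the mitochondrial sterol hydroxylase, was at 8.63 in WT and 8.75 in cKO on CT, and at 8.79 in WT and 8.07 in cKO on HFD. It was the only one of the 7 to pass 1.5-fold, with -0.72 for cKO-HFD over WT-HFD and -0.69 for cKO-HFD over cKO-CT. Of all genes above background, 3.13% and 3.21% were lower by this size in these comparisons. *Cyp51*, of cholesterol synthesis, had ratios of 0.58 and 0.53 in them, under that size. It was at 5.83 in cKO-HFD, against 5.26 in WT-HFD, below the background of 5.42, and 5.31 in cKO-CT, close to the background of 5.28. *Cyp26b1*, which breaks down retinoic acid, lay between 5.93 and 6.26.

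Outside the naming rule, 7 probe sets named several genes with a P450 gene of families 1 to 4 among them and 5 named a symbol with a suffix or a second letter. Of these 12, 2 were above background on all 4 arrays: the pseudogene *Cyp2d37-ps*, at 5.85 to 6.05, and a probe set that also names another gene, at 6.95 in WT and 7.42 in cKO on CT, and at 7.53 in WT and 7.99 in cKO on HFD. The gene behind the latter cannot be told from this probe set.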
